A study of Mus musculus with 4 samples.

Results

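The glucocorticoid receptors and a set of glucocorticoid response genes were examined in bulk RNA-seq of tissue enriched in granule cells, which was dissected by hand from the cerebellar vermis (GCE tissue). The set has 10 genes, which were taken by name and matched by NCBI gene number, and all 10 were found among the 24532 genes of each library. It holds 2 receptors, *Nr3c1* and *Nr3c2*, and 8 response genes, *Fkbp5*, *Tsc22d3*, *Sgk1*, *Zbtb16*, *Pdk4*, *Angptl4*, *Sult1a1* and *Fam107a*. The groups were 2 WT mice and 2 heterozygous Kdm3b mice (Kdm3b+/-), with 1 library per mouse. All were adult males and the WT mice were littermates. The Kdm3b+/- mice carry a gene-trap vector in an intron of *Kdm3b*, which goes back to a single ES cell line and was brought first onto C57Bl/6N and later onto C57Bl/6J. *Kdm3b* encodes a demethylase of lysine 9 on histone H3. Training, the hour of collection and the handling of these 4 mice are not given in the sources used here.

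Glucocorticoids such as corticosterone act through the glucocorticoid receptor (*Nr3c1*) and the mineralocorticoid receptor (*Nr3c2*). These nuclear receptors are held by Hsp90 chaperones, move to the nucleus when they bind the hormone, and bind DNA at response elements made of a pair of facing half-sites. The response genes are known to rise with the hormone in many tissues, the brain among them, and some of them feed back on the receptor.

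The promoters of the members were searched for the half-site AGAACA on either strand and for the palindrome, in which 2 half-sites face each other across 3 bases. The sequences are from RefSeq (GRCm38.p6) and run from 250 bases before to 50 bases after each annotated start site. Promoters were searched for 7 of the 10 members, with 16 start sites in all. No promoter of *Nr3c1*, *Angptl4* or *Zbtb16* was among those searched, so whether these genes hold a motif is not known. A half-site was present in 7 of the 16 promoters, which belong to *Sult1a1*, *Sgk1*, *Fam107a* and *Tsc22d3*, and in 19.0% of all 32851 promoters. *Fam107a* has 2 of the 7, at start sites 2 bases apart, so these share nearly all of their sequence. Counted by gene, a half-site was present in 4 of the 7 members and in 21.3% of all 27025 genes. A gene was counted where any of its promoters held one. The 7 members have 16 promoters and the 27025 genes have 32851, so more sequence per gene was searched for the members. The palindrome was present without a mismatch in 3 of the 32851 promoters (0.00913%), and 1 of these 3 belongs to *Sgk1*. A match describes the letters of the sequence and does not show that a receptor binds there.

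3 promoters are shown because they belong to the 2 members that passed the test below and to the member with the palindrome. Capitals mark the half-sites, and the start site is 250 bases from the left end.
Sgk1, chr10:21993640-21993939, forward strand: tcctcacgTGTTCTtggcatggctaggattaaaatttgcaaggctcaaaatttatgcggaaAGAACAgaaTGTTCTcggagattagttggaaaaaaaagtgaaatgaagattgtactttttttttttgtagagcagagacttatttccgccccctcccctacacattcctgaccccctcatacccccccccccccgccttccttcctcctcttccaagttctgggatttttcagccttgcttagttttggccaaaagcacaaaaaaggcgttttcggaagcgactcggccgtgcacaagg
Sult1a1, chr7:126676369-126676668, reverse strand: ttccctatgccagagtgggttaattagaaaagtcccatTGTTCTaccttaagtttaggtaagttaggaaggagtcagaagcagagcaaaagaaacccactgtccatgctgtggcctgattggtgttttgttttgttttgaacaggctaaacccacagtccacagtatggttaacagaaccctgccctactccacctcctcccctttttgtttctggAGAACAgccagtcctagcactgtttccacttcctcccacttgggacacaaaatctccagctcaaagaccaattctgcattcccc
Fam107a, chr14:8309730-8310029, reverse strand: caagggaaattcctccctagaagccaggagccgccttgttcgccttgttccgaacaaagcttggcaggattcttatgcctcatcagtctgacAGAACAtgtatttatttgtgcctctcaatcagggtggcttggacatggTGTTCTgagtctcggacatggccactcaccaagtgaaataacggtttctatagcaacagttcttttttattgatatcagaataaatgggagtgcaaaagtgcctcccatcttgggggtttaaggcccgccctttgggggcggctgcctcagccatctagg

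In the *Sgk1* sequence the palindrome reads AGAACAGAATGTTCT and begins 189 bases before the start site, and a further half-site lies 242 bases before it. This start site is 1 of 6 of *Sgk1* in the table. The half-sites of *Sult1a1* begin 212 and 34 bases before its start site, and those of *Fam107a* 158 and 110 bases before its own. *Tsc22d3* has 1 half-site, 185 bases before 1 of its 3 start sites. The promoters of *Pdk4*, *Nr3c2* and *Fkbp5* hold neither motif in this window, and distant elements were not examined.

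**Figure D1:**
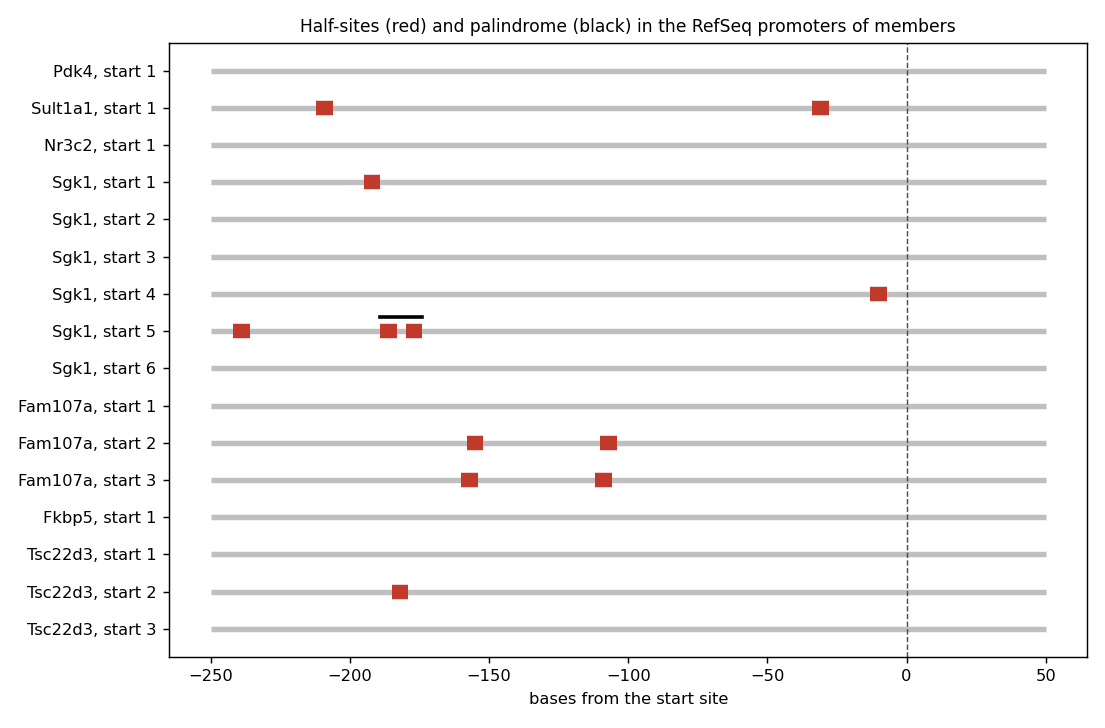
Each grey line is a promoter of a member, drawn from 250 bases before to 50 bases after a start site, with the distance from the start site on the x axis in bases. Red blocks are half-sites and the black bar is the palindrome, which is found at 1 start site of *Sgk1*, 189 bases before it.

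Expression was measured as TPM, the abundance of transcripts scaled to gene length and to an equal total in each library, so that levels can be compared between genes. Between 4.92 and 6.69 gigabases were aligned per library. The genotypes were compared on the log2(TPM + 1) scale with limma for 13652 genes, those whose TPM averaged 1 or more. This transformation shrinks differences between small values. Genes were called differentially expressed (DEX) where the adjusted p was below 0.05 and the fold exceeded 1.2. All 10 members passed the TPM minimum. *Kdm3b* itself had 9.10 and 11.0 TPM in WT against 8.30 and 7.90 TPM in Kdm3b+/- tissue. Both Kdm3b+/- values were lower, but with a log2 fold change of −0.27 (limma, adjusted p = 0.424) the gene was not DEX. The study reports a significant decrease of KDM3B protein in the vermis of Kdm3b+/- mice by immunoblot, which measures protein and not RNA of GCE tissue.

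All 8 response genes had a lower TPM in both Kdm3b+/- mice than in both WT mice, and so had *Nr3c2*, whereas the groups overlapped for *Nr3c1*. Of the 10 members, 2 were DEX, *Sult1a1* and *Fam107a*, both lower. Of all tested genes, 0.344% were DEX and lower and 0.117% were DEX and higher. The groups did not overlap and were lower in Kdm3b+/- mice for 9 of the 10 members, which compares with 32.0% of all tested genes, while 19.2% of all tested genes were higher without overlap. An unadjusted p under 0.05 with a lower level was found for the same number of members, 9, and for 11.5% of all tested genes. The members were chosen with earlier results of these data known, so these counts describe the set and do not test it. The median log2 fold change of the 8 response genes was −1.18, and that of all tested genes was −0.07. An exact permutation of these 4 mice cannot give a two-sided p below 0.333, so only the model across genes can pass a threshold. In bulk tissue, fewer cells that express a gene and less RNA of it per cell cannot be told apart.

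**Figure D2:**
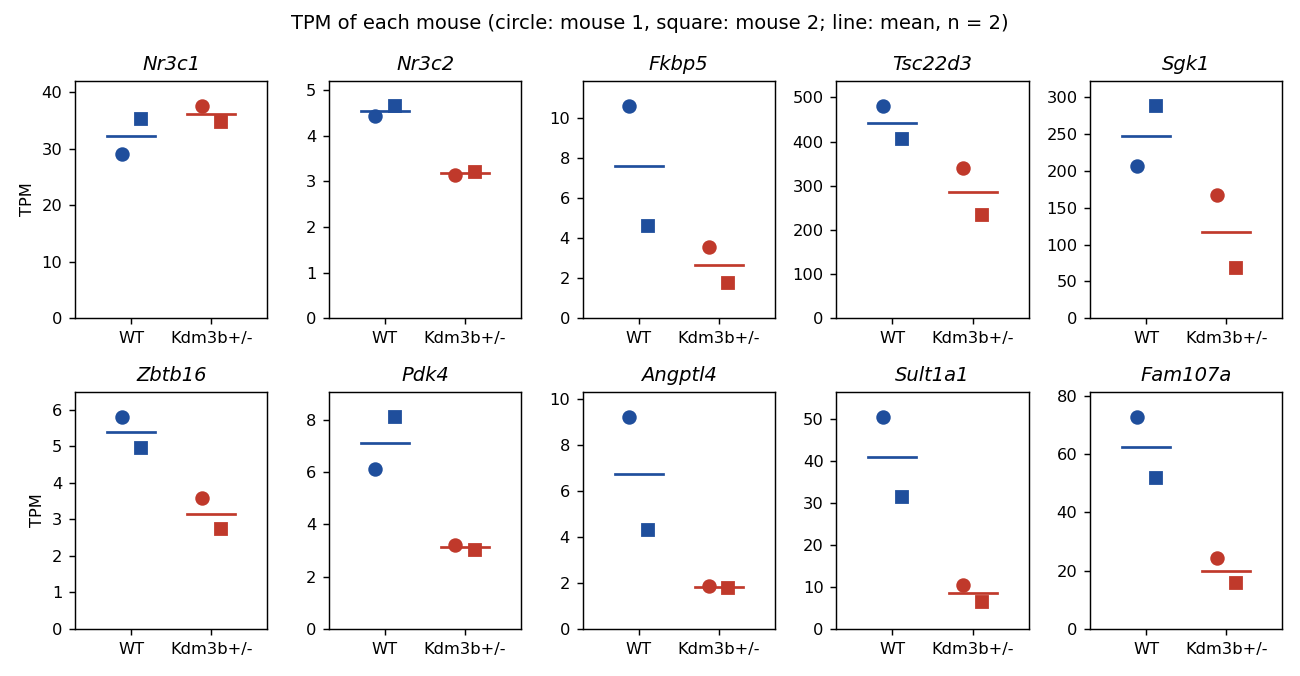
TPM of each member on the y axis, each panel from 0, for the 2 WT mice (blue) and the 2 Kdm3b+/- mice (red), with circles for mouse 1, squares for mouse 2 and lines for the mean (n = 2). The groups are apart in 9 panels and overlap in that of *Nr3c1*.

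Of the receptors, *Nr3c1* was the more abundant per length. It lies on the same chromosome as *Kdm3b*, chromosome 18, on the reverse strand from 39410545 to 39487245 in the deposited tables, and at a distance of 4.57 Mb. It reached 29.0 and 35.2 TPM in WT animals, and 37.4 and 34.8 TPM in Kdm3b+/- animals. The Kdm3b+/- mouse with the lower value thus fell between the WT mice. *Nr3c1* had a log2 fold change of 0.17, with a 95% confidence interval from −0.18 to 0.52 (limma, adjusted p = 0.600). It was 0.03 without WT mouse 1 and 0.30 without WT mouse 2.

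*Nr3c2*, which binds corticosterone at lower concentrations than *Nr3c1*, was the least abundant member in WT mice. It reached 4.43 and 4.64 TPM in WT animals but 3.15 and 3.21 TPM in Kdm3b+/- animals. Mice of a genotype were close to each other and the groups were apart, with a log2 fold change of −0.41 (± 0.17, SE, limma adjusted p = 0.277), which did not pass the test. The TPM ratio of *Nr3c1* to *Nr3c2* was 6.56 and 7.59 for WT and 11.9 and 10.8 for Kdm3b+/- mice.

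*Sult1a1* had the largest decrease among the members. It encodes a cytosolic enzyme that transfers sulfate to phenolic compounds, and lies on chromosome 7 from 126672870 to 126676357. It reached 50.6 and 31.6 TPM in WT animals (41.1 ± 13.4, SD, n = 2) but 10.5 and 6.46 TPM in Kdm3b+/- animals (8.47 ± 2.85, SD, n = 2). Even the nearest values of the groups were 3.01-fold apart. On the log2 scale the change was −2.15 (± 0.26, SE, limma adjusted p = 0.0133), and 6 of the 13652 tested genes had a lower one. *Sult1a1* was no longer DEX without WT mouse 1, where its log2 fold change was −1.82 (adjusted p = 0.0708), and was DEX with any other library left out.

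*Fam107a* (chromosome 14, 8296278 to 8309776) encodes an actin-binding protein that is induced by stress and glucocorticoids in the brain. It reached 72.6 and 51.8 TPM in WT animals (62.2 ± 14.7, SD, n = 2) but 24.2 and 15.8 TPM in Kdm3b+/- animals (20.0 ± 5.91, SD, n = 2). The lower WT value was 2.14-fold above the higher Kdm3b+/- value. Its log2 fold change was −1.60 (± 0.22, SE, limma adjusted p = 0.0239). The study lists *Fam107a* among its DEX genes, from a count test (DESeq2) of the same libraries. It also measured the gene by RT-qPCR in GCE tissue of separate mice. The difference had the same direction there but was not significant. *Fam107a* was not DEX without WT mouse 1 (adjusted p = 0.0840) or without WT mouse 2 (adjusted p = 0.0706). Without the minimum on TPM, which adds many genes near 0 to the fit, neither was DEX, with an adjusted p of 0.218 for *Sult1a1* and of 0.245 for *Fam107a*.

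*Angptl4* and *Pdk4* act in lipid and glucose metabolism. *Angptl4* (chromosome 17, 33774900 to 33781575) encodes a secreted inhibitor of lipoprotein lipase. It reached 9.20 and 4.29 TPM in WT animals but 1.87 and 1.80 TPM in Kdm3b+/- animals. The WT mice differed 2.15-fold from each other while the Kdm3b+/- mice were nearly equal. The mean read depth over its exons was 20.4 and 10.6 for WT and 4.95 and 5.50 for Kdm3b+/- mice. The study, with a count test (DESeq2) of the same libraries, lists *Angptl4* among its lower DEX genes. Here its log2 fold change of −1.37 (± 0.28, SE, limma adjusted p = 0.0997) did not pass the test. It passed without WT mouse 2 (adjusted p = 0.0364), without Kdm3b+/- mouse 1 (adjusted p = 0.0150) and without Kdm3b+/- mouse 2 (adjusted p = 0.0147), and ran from −1.85 without WT mouse 2 to −0.90 without WT mouse 1.

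*Pdk4* (chromosome 6, 5483351 to 5496278) encodes a kinase that inhibits pyruvate dehydrogenase and so spares glucose. It reached 6.13 and 8.10 TPM in WT animals but 3.21 and 3.03 TPM in Kdm3b+/- animals. Here WT mouse 2 was the higher WT mouse, unlike in *Angptl4*. For *Pdk4* this gave a log2 fold change of −0.97 (± 0.19, SE, limma adjusted p = 0.0805).

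*Fkbp5* (chromosome 17, 28398753 to 28486149) encodes a co-chaperone of Hsp90 that lowers the affinity of the receptor for the hormone and thereby closes a feedback loop. It reached 10.6 and 4.60 TPM in WT animals but 3.56 and 1.75 TPM in Kdm3b+/- animals. Mouse 1 was 2.30-fold above mouse 2 among WT mice and 2.03-fold above it among Kdm3b+/- mice, and the nearest values of the groups were 1.29-fold apart. The log2 fold change was −1.18, with a 95% confidence interval from −1.96 to −0.41 (limma, adjusted p = 0.174). It ran from −1.71 without WT mouse 2 to −0.66 without WT mouse 1, and *Fkbp5* was DEX without Kdm3b+/- mouse 1 (−1.55, adjusted p = 0.00615).

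*Tsc22d3* encodes GILZ, a leucine zipper protein that mediates part of the anti-inflammatory action of glucocorticoids, and was the most abundant member in both genotypes. It lies on chromosome X from 140539529 to 140600522. It reached 480 and 405 TPM in WT animals but 340 and 233 TPM in Kdm3b+/- animals. The Kdm3b+/- mean was 64.8% of the WT mean, and the log2 fold change was −0.64 (± 0.18, SE, limma adjusted p = 0.168). It was DEX without Kdm3b+/- mouse 1 (−0.91, adjusted p = 0.00831), and fell by 0.37 on the log2 scale without Kdm3b+/- mouse 2.

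*Sgk1*, whose promoter with the palindrome is printed above, encodes a kinase that regulates ion channels and transporters. It lies on chromosome 10 from 21882184 to 21999902. It reached 207 and 288 TPM in WT animals but 167 and 68.4 TPM in Kdm3b+/- animals. The Kdm3b+/- mice differed 2.45-fold from each other, and Kdm3b+/- mouse 1 lay close to WT mouse 1. The log2 fold change was −1.18 (± 0.34, SE, limma adjusted p = 0.174). Without Kdm3b+/- mouse 1 it was −1.82 and *Sgk1* was DEX (adjusted p = 4.48e-06), while without Kdm3b+/- mouse 2 it was −0.54 (adjusted p = 0.229).

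The level of *Sgk1* also depends on the scale, and the cause was not tested. Its TPM was between 6.53 and 6.77 times the value that follows from read depth over all its exons. On that second scale, which was added after seeing the data, *Sgk1* was at 30.6 and 42.5 in the WT mice and at 24.8 and 10.5 in the Kdm3b+/- mice. This gave a log2 fold change of −1.11, close to that of TPM. For *Tsc22d3* the ratio of the scales was 1.34 in each library, and for the other members the scales gave the same values.

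*Zbtb16* (chromosome 9, 48654297 to 48835945), which encodes the zinc finger transcription factor PLZF, had 5.80 and 4.97 TPM in WT against 3.58 and 2.74 TPM in Kdm3b+/- tissue. The groups were 1.39-fold apart at their nearest values, and the log2 fold change of −0.62 (± 0.19, SE, limma adjusted p = 0.181) did not pass the test.

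**Figure D3:**
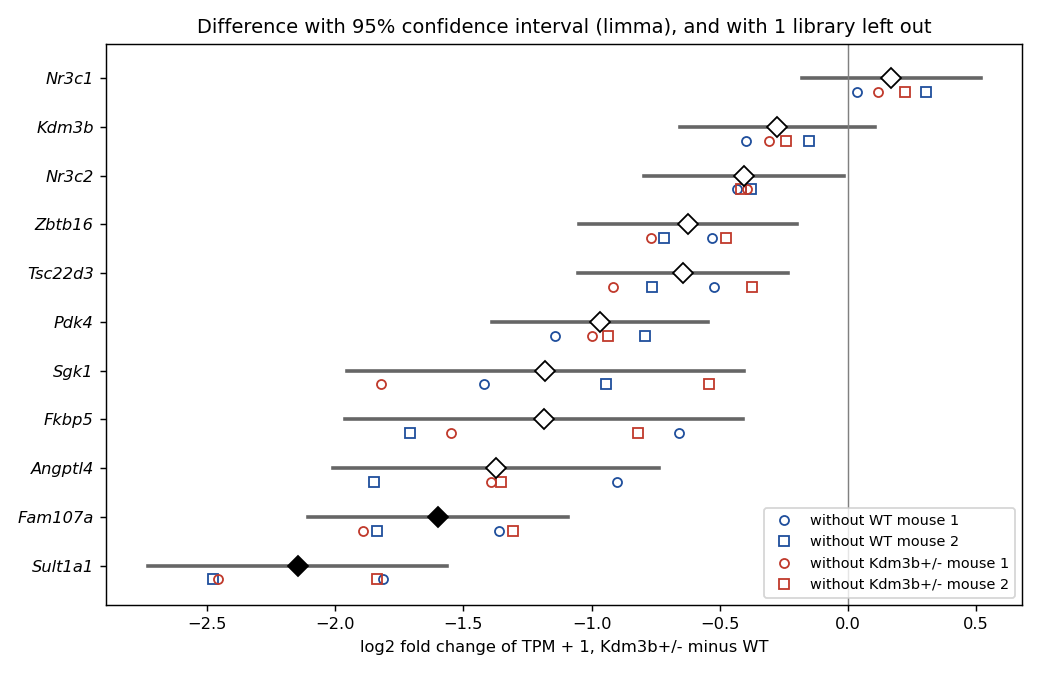
The x axis is the log2 fold change of TPM + 1, Kdm3b+/- minus WT, for each member and for *Kdm3b*. Diamonds and grey lines are the estimates and their 95% confidence intervals from limma, filled for DEX genes, and small symbols are the estimates with 1 library left out, which are below 0 for *Nr3c2* and the 8 response genes.

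By mean TPM in WT mice, the members ran in the order *Tsc22d3*, *Sgk1*, *Fam107a*, *Sult1a1*, *Nr3c1*, *Fkbp5*, *Pdk4*, *Angptl4*, *Zbtb16* and *Nr3c2*. The ranges of neighbours overlapped between *Sult1a1* and *Nr3c1* and from *Fkbp5* through *Zbtb16*. In Kdm3b+/- mice *Nr3c1* came next after *Sgk1*, above *Fam107a* and *Sult1a1* without overlap, and the ranges of neighbours overlapped from *Nr3c2* through *Zbtb16*, *Pdk4* and *Fkbp5* to *Angptl4*. *Angptl4* was the least abundant member there, with a mean TPM of 1.84 ± 0.0511 (SD, n = 2). The place of *Sgk1* holds for TPM only. On the scale of read depth *Sgk1* was at 30.6 and 42.5 in WT mice, below *Fam107a* at 72.6 and 51.8. In Kdm3b+/- mice it was at 24.8 and 10.5 on that scale, below *Nr3c1* at 37.4 and 34.8.

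The libraries stood in nearly the same order for most response genes. Kdm3b+/- mouse 2 had the lowest value for all 8, and WT mouse 1 had the highest value for 6, with WT mouse 2 highest for *Sgk1* and *Pdk4*. Measured from the mean of the 4 libraries on the log2(TPM + 1) scale, the median deviation of the 8 genes was 0.74 and 0.39 for WT and −0.34 and −0.83 for Kdm3b+/- mice. Over all tested genes it was between −0.06 and 0.06. The mice of a genotype thus also differed from each other in these genes.

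Other genes of the pathway were examined as lists by role, with 74 genes in all. Of these, 60 were tested. By limma, 2 were DEX and lower and 0 were DEX and higher, and at an unadjusted p under 0.05, 12 were lower and 1 was higher. Of all tested genes, 0.344% were DEX and lower, 0.117% were DEX and higher, and 11.5% were lower at that unadjusted p. In both directions together, 2318 of the 13652 tested genes had an unadjusted p under 0.05. The lists, which were also chosen with earlier results of these data known, are described by these counts and by their medians.

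Among 25 other genes known to be induced by glucocorticoids, 22 were tested, and 2 were DEX, both lower. *Arl4d*, a small GTPase of the ARF family, had 40.9 and 36.6 TPM in WT against 16.6 and 12.7 TPM in Kdm3b+/- tissue (log2 fold change −1.35, adjusted p = 0.0138 from limma). *Cdkn1a*, the cell cycle inhibitor p21, had 82.3 and 71.9 TPM in WT against 42.3 and 31.1 TPM in Kdm3b+/- tissue (log2 fold change −1.06, adjusted p = 0.0413 from limma). For 13 of the 22 genes both Kdm3b+/- values were below both WT values, and for 9 the groups overlapped, where 32.0% of all tested genes were lower without overlap. The median log2 fold change was −0.37. Neither *Arl4d* nor *Cdkn1a* was DEX without WT mouse 1 (adjusted p = 0.0728 and 0.0867) or without WT mouse 2 (adjusted p = 0.0706 and 0.118), and *Cdkn1a* was not without Kdm3b+/- mouse 2 (adjusted p = 0.0680).

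Of the induced genes that were not DEX, *Lcn2*, an iron-binding lipocalin, had the lowest log2 fold change (−1.11, adjusted p = 0.0641). It reached 1.87 and 1.61 TPM in WT animals but 0.358 and 0.190 TPM in Kdm3b+/- animals, and with a pseudocount of 0.1 the log2 fold change was −2.33. *Klf15*, *Txnip*, *Dusp1*, *Arrdc2*, *Bcl6*, *Sesn1* and *Hif3a*, which were named after their values were seen, also had an unadjusted p under 0.05 with a lower level, and their log2 fold changes ran from −1.05 in *Bcl6* to −0.50 in *Sesn1*. The value of *Bcl6* was −0.47 without Kdm3b+/- mouse 2 and −1.64 without Kdm3b+/- mouse 1. That of *Dusp1* was −0.47 without Kdm3b+/- mouse 2, and that of *Hif3a* was −0.98 with a pseudocount of 0.1. *Dusp1*, a phosphatase of MAP kinases, had 113 and 167 TPM in WT against 96.3 and 68.5 TPM in Kdm3b+/- tissue. *Klf15*, a transcription factor of metabolic genes, had 65.3 and 75.1 TPM in WT against 48.2 and 40.4 TPM in Kdm3b+/- tissue, and *Txnip*, a thioredoxin-binding protein, had 17.8 and 14.7 against 9.72 and 8.38. In both genes the groups were apart, whereas they overlapped in the following 4. *Mt1*, a metallothionein and the most abundant of the list, had 1250 and 926 against 957 and 770, with overlap. *Klf9* (0.04), *Gadd45g* (0.21) and *Cebpb* (0.70) had the 3 highest log2 fold changes, and none of these passed the test (adjusted p from 0.388 to 0.917, limma).

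**Figure D4:**
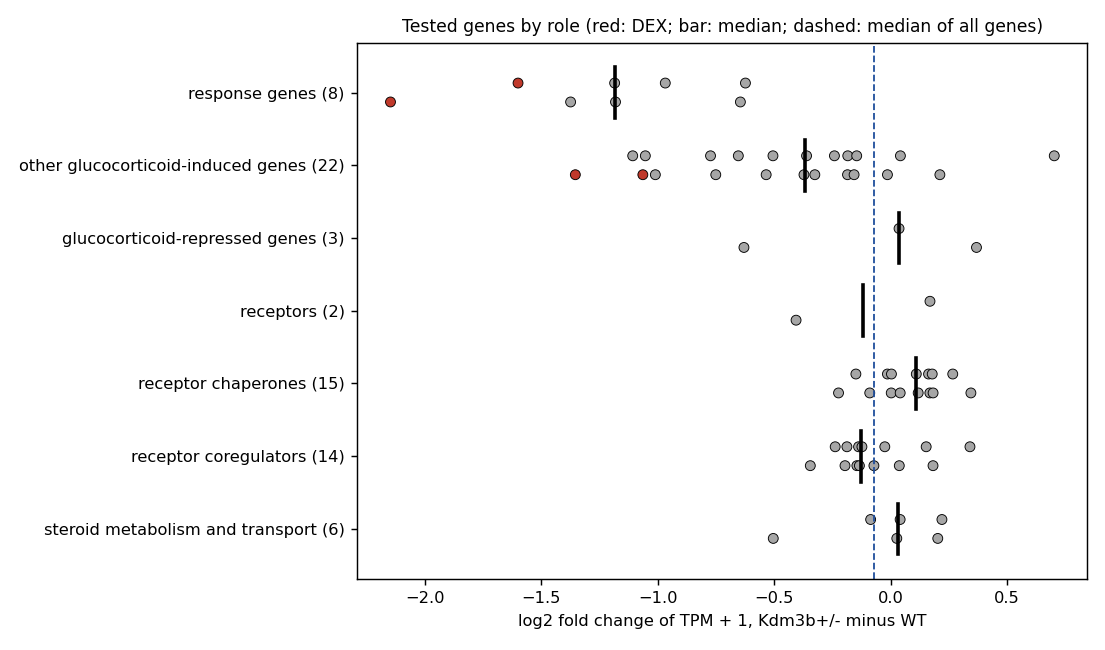
Log2 fold change of TPM + 1, Kdm3b+/- minus WT, of each tested gene on the x axis, by list, with the number of tested genes in parentheses. Red points are DEX genes, bars are medians of the lists, and the dashed line is the median of all tested genes (−0.07). The median was −1.18 for the response genes and −0.37 for the other induced genes.

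The chaperones and co-chaperones of the receptor were all tested. None of the 15 was DEX by limma, and at an unadjusted p under 0.05 there were 0 lower genes and 1 higher gene, *Hsp90aa1*. Of all tested genes, 11.5% were lower at that unadjusted p. Without overlap, 8 of the 15 were higher and 1 was lower, where 19.2% of all tested genes were higher and 32.0% lower. *Hsp90aa1*, the inducible Hsp90, had 552 and 497 TPM in WT against 672 and 658 TPM in Kdm3b+/- tissue (log2 fold change 0.34, adjusted p = 0.217). *Ppid* (0.27) and *Stub1* (0.18) followed, and the lowest values were in *Ppp5c* (−0.22), *Hspa4* (−0.15) and *Dnajb1* (−0.09). *Hspa8*, the constitutive Hsp70 and the most abundant gene of the list, had a log2 fold change of −0.01. The median of the list was 0.11.

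Coregulators that the receptors recruit to DNA were close to the median of all genes, with a median log2 fold change of −0.13 for 14 tested genes. 0 of them were DEX by limma, and 0 had an unadjusted p under 0.05. *Nrip1* (−0.34), *Ncoa1* (−0.24) and *Med1* (−0.20) had the lowest values, and *Ncor1* (0.18) and *Crebbp* (0.15) were above 0. *Tsg101*, the most abundant of the list, had −0.07.

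Of 10 genes for steroid metabolism and transport, 6 were tested, and none was DEX by limma. *Hsd11b1*, which regenerates active corticosterone from its inert form inside cells, was the most abundant, with 203 and 236 TPM in WT against 271 and 240 TPM in Kdm3b+/- tissue (log2 fold change 0.22, adjusted p = 0.433). *H6pd*, which supplies the cofactor of that enzyme, had 4.24 and 6.26 against 3.06 and 3.65 (log2 fold change −0.50, adjusted p = 0.268), and was the 1 gene of the list with an unadjusted p under 0.05. Its log2 fold change was −0.27 without WT mouse 2. The other tested genes were *Star* (0.20), *Cyp11a1* (0.04), *Srd5a1* (0.03) and *Abcb1a* (−0.09). *Hsd11b2*, which inactivates corticosterone, was below the TPM minimum.

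Of 10 genes that glucocorticoids repress, such as cytokines, 7 were below the TPM minimum. The tested genes were *Pomc* (log2 fold change 0.37), *Icam1* (0.04) and *Mmp9*, a matrix protease, with 2.07 and 2.98 TPM in WT against 1.31 and 1.21 TPM in Kdm3b+/- tissue (log2 fold change −0.63, adjusted p = 0.200). None of these 3 was DEX by limma.

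The tissue label was checked with marker lists, whose part in the results above was not tested. All 11 granule cell markers were tested, with a summed TPM of 4299 to 5105 in the WT mice and of 4402 to 4552 in the Kdm3b+/- mice. Their defining marker *Gabra6* was at 984 and 1097 against 1200 and 1032. RNA of other cells was also present. The sum of 9 oligodendrocyte markers was 16132 to 17640 against 14968 to 17900. That of 11 Purkinje cell markers, of which 10 were tested, was 709 to 1621 against 731 to 904, with WT mouse 1 the highest. Of the 10, 4 were lower without overlap, where 32.0% of all tested genes were. All 10 had a log2 fold change below 0, with a median of −0.50, where that of all tested genes was −0.07. A lower level with an unadjusted p under 0.05 (limma) was found for 3 of them and for 11.5% of all tested genes. The groups overlapped as well in the sums of 11 astrocyte and Bergmann glia markers (1477 to 1588 against 1348 to 1526), 7 microglia markers (184 to 204 against 198 to 211), 9 endothelial markers (285 to 327 against 306 to 310), 5 red blood cell markers (1142 to 1765 against 1353 to 1928) and 4 choroid plexus markers (0.966 to 3.57 against 0.906 to 2.23). *Ttr* was listed at 0 in WT mouse 2 and *Folr1* at 0 in Kdm3b+/- mouse 1.

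Single markers moved where sums did not. Of the 11 astrocyte and Bergmann glia markers, 6 were lower without overlap and 2 higher, where 32.0% and 19.2% of all tested genes were. An unadjusted p under 0.05 (limma) was found for 4 lower genes (*Aldh1l1*, *Slc1a3*, *Gdf10* and *Gjb6*) and for 2 higher genes (*Aqp4* and *Hopx*). Of all tested genes, 11.5% were lower at that unadjusted p. Among red blood cell markers, *Hbb-bs* was at 506 TPM in WT mouse 1 and at 8.08 TPM or less in the other mice. Without *Hbb-bs*, a choice made after its values were seen, the sum was 1134 to 1259 in WT and 1353 to 1928 in Kdm3b+/- mice. Of these 4 markers, 3 were higher without overlap, where 19.2% of all tested genes were. The globin genes are near-identical copies, so the split of reads between them is uncertain.

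The groups were apart in 3 sums. Mural cell markers were at 220 to 221 in the WT mice and at 226 to 265 in the Kdm3b+/- mice. Of the 7 tested, 0 were lower and 1 was higher without overlap, where 32.0% and 19.2% of all tested genes were. Meningeal fibroblast markers were at 1707 to 1899 against 1025 to 1036, of which *Ptgds* was the greater part, and without *Ptgds* at 44.0 to 52.6 against 34.5 to 37.0. Of the 6 tested, 4 were lower and 1 was higher without overlap, where 32.0% and 19.2% of all tested genes were. The higher one was *Lum*, with 1.29 and 0.984 TPM in WT against 3.40 and 2.86 TPM in Kdm3b+/- mice. Immediate early genes, which follow neuronal activity and handling, were at 276 to 386 against 233 to 241. Of the 8 tested, 3 were lower and 1 was higher without overlap, where 32.0% and 19.2% of all tested genes were. At an unadjusted p under 0.05 (limma), 3 were lower and 0 were higher, where 11.5% of all tested genes were lower. The sum of 11 clock genes overlapped (726 to 972 against 723 to 778). Of these genes, 5 were lower and 1 was higher without overlap, where 32.0% and 19.2% of all tested genes were. Of all markers, *Aqp4* was DEX and higher, and *Mobp* and *Ptgds* were DEX and lower, and these 3 were named after their values were seen.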

How the data were processed

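Libraries of GCE tissue came from 2 WT and 2 Kdm3b+/- mice, 1 per mouse, grouped by the genotype in the labels. The authors trimmed low-quality bases, aligned reads with STAR and estimated abundance with StringTie. Versions, genome build and annotation are not given in the sources used here. The deposited TPM, the deposited FPKM and the deposited coverage signal (mean read depth over exons, not normalized) are given per gene and library, and counts were not recovered. Identifiers lay on the chromosome of the RefSeq table of GRCm38 for 99.6%, and symbols were found for 24462 of 24532. Entries that shared an identifier were summed, which concerned 220 identifiers and 0 members. Aligned bases were the most frequent ratio of coverage to FPKM.

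Genes whose TPM averaged 1 or more were tested with limma version 3.58.1 (lmFit, eBayes with trend) in R version 4.3.3 on log2(TPM + 1), with genotype as the only term and Benjamini-Hochberg adjustment over 13652 genes. The count test of the study was not used, since TPM is not a count. The fit was also run on simulated data with independent errors and with the spreads shuffled among genes. That run cannot show how the fit handles spreads that follow the level, or shifts that the genes of a mouse share. The robust fit needed statmod version 1.5.0. Scripts ran on Python version 3.11.15, pandas version 2.3.3, NumPy version 2.4.6 and Matplotlib version 3.10.9. With a library left out, the lone library was assumed to vary like the other group.

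The members, gene lists, tests and alternatives were chosen with earlier results of these data known. The genes named are *Kdm3b*, the members, DEX genes of the pathway lists, and in each list the 3 largest increases, the 3 largest decreases and the most abundant gene. For 1 gene under this rule, values are not reported here. The alternatives were a pseudocount of 0.1, FPKM, no filter, a TPM averaging 5 or more, quantile normalization, median-ratio scaling, the highest entry per identifier, robust eBayes, eBayes with no trend, a replicate block, each library left out, and 2 other thresholds (adjusted p without a fold, and log2 fold changes beyond 1.2). Coverage scaled to aligned bases was added after seeing the data.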

Additional observations from a re-analysis of the deposited data

How the results depend on the processing

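*Nr3c2* and the 8 response genes stayed lower in Kdm3b+/- mice, and *Nr3c1* stayed higher, under each alternative in which they were tested. A mean TPM of at least 5 removed *Nr3c2*, *Angptl4* and *Zbtb16*. *Sult1a1* was DEX in 13 of 15 alternatives and *Fam107a* in 10 of 15. Of the members, 2 were DEX and lower in the analysis as reported, against 0 without the filter on low TPM, 1 with quantile normalization, 1 with eBayes without trend, and 0 to 6 with a library left out (0 without WT mouse 1, 6 without Kdm3b+/- mouse 1). Quantile normalization left *Fam107a* at an adjusted p of 0.0600, and eBayes without trend at 0.0539. With median-ratio scaling, which moved the median of all genes from −0.07 to −0.00, *Nr3c1* became 1 member that was higher without overlap.

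Replicate numbers 1 and 2 recur in both groups, but same-numbered mice are different animals, and their deviations from the group means correlated at 0.121 across genes. With the replicate number as a block, 7 members were DEX, all lower, with *Fkbp5*, *Tsc22d3*, *Sgk1*, *Pdk4* and *Angptl4* added. In that fit 427 genes were DEX and lower and 173 higher, and 7 pathway genes were lower.

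Of all tested genes, 47 were DEX and lower and 16 higher as reported. Lower genes numbered 25 with FPKM, 1 without the filter, 27 with eBayes without trend, 25 with a log2 fold change over 1.2, and 14 to 146 with a library left out. Higher genes numbered 0 without the filter, 10 with eBayes without trend, 28 with robust eBayes, 8 with a log2 fold change over 1.2, and 7 to 42 with a library left out. Of the pathway genes, 2 were DEX and lower as reported, 1 with FPKM, median-ratio scaling, quantile normalization, scaled coverage or a log2 fold change over 1.2, 0 without the filter, and 0 to 6 with a library left out. *Cdkn1a* was not DEX in these (with FPKM its adjusted p was 0.0768) or with eBayes without trend, and *Lcn2* was DEX with eBayes without trend and with robust eBayes. The causes were not tested. The lowest mean read depth of a member in a library was 4.95, for *Angptl4*.

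Some pathway genes that did not pass the test changed direction, with an adjusted p of 0.423 or more in each case. *Hspa8* was at 0.0517 with FPKM and 0.0597 with median-ratio scaling, *Tsg101* at 0.00138 with median-ratio scaling, and *Abcb1a* at 0.0143 and *Klf9* at −0.000262 with quantile normalization. With a library left out, log2 fold changes of both signs were found for *Cyp11a1* (−0.0477 to 0.13), *Tsg101* (−0.24 to 0.0975), *Klf9* (−0.19 to 0.28), *Icam1* (−0.14 to 0.21), *Hspa8* (−0.0747 to 0.0474), *Srd5a1* (−0.00146 to 0.0546), *Cebpb* (−0.0151 to 1.42) and *Ncor1* (−0.0799 to 0.44).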
